A study of Mus musculus with 6 samples.

Results

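Pentose phosphate, nucleotide and one-carbon synthesis was described through 35 genes in mouse epidermis with and without Rptor. The genes were listed by name, 7 for the pentose phosphate pathway, 2 for phosphoribosyl pyrophosphate (PRPP), 10 for purines, 5 for pyrimidines, 6 for deoxynucleotides and 5 for folate. Each was read from a probe set that names that gene and no other, and where a gene had several, from the probe set with the highest mean over all 6 arrays. Of the 35, 31 were measured in this way among 30142 genes tested. The probe sets of Tkt and Pfas also name a microRNA inside the gene and were kept apart, and G6pdx and Impdh2 had no probe set under their own name here, so their levels were not analysed.

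Epidermal sheets came from mouse embryos at E18.5, late in gestation, lifted off the dermis with ammonium thiocyanate. The 3 Rptor cKO arrays (1, 2 and 3) came from embryos with a conditional knockout of Rptor, checked by genotyping, and the 3 wild-type arrays (4, 5 and 6) from littermates. Rptor encodes Raptor, the subunit that presents substrates to the kinase complex mTORC1. The sources used here do not name the promoter that drives the recombinase, the deleted exons, the strain or any allele that the wild-type littermates carry. The values are log2 signals per probe set, and every difference is Rptor cKO minus wild-type. An adjusted p is from limma's moderated test with Benjamini-Hochberg adjustment over all 30142 genes, and a gene is said to rise or fall where it is under 0.05.

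Cells build nucleotides from ribose 5-phosphate, amino acids and one-carbon units. The pentose phosphate pathway makes the ribose and, in its oxidative branch, NADPH, PRPP synthetases activate the ribose, and folate carries the one-carbon units that enter the purine ring and thymidylate. In growing cells mTORC1 is known to raise this supply, through MYC, SREBP and ATF4 as transcription factors and through S6 kinase, which phosphorylates CAD. In epidermis the demand for deoxynucleotides comes mainly from the dividing basal layer, while the spinous and granular layers above it no longer divide.

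Rptor itself read 6.54, 6.82 and 6.72 in the knockouts (arrays 1 to 3) and 6.98, 7.46 and 7.0 in the wild type (arrays 4 to 6). All Rptor cKO arrays lay lower, and the difference of -0.46 (SE 0.15) did not pass the test (adjusted p = 0.099 in limma). Basal keratinocyte markers averaged 8.89 to 9.28 on the 6 arrays, so the sheets carried the RNA of their labelled tissue. The Rptor cKO embryos were 2 females (arrays 1 and 3) and 1 male (array 2) by Xist and Y-linked genes, and the wild-type embryos 3 males. Over all genes 1094 (3.63%) rose and 1793 (5.95%) fell, and the falls made up 62.1% of these calls. With each array's median subtracted that share was 75.8%. All 31 members read above the negative control median on all 6 arrays. The 95th percentile of those controls ran from 7.46 to 8.07 over the arrays. Prps1 and Shmt2 passed it on all 6 arrays, Taldo1, Mthfd1, Dtymk and Gmps on some, and the other members on none. Only 3 arrays a group limit the precision of every value.

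Of the 31 measured members, 11 rose, 2 fell and 18 did not pass the test. Without Rptor cKO array 2 the counts were 2 rises and 1 fall, with array medians subtracted 6 and 2, and with embryo sex as a term, which leaves that array alone against the wild type, 0 and 0 (12 higher and 3 lower at an unadjusted p under 0.05 in limma). Without Rptor cKO array 1 or wild-type array 4 or 5 there were 6 rises, and without wild-type array 6 there was 1 fall. The counts on all 6 arrays stand beside 3.63% of all genes that rose and 5.95% that fell, 1094 and 1793 genes. Over all genes there were 274 rises and 612 falls without Rptor cKO array 2, a fit of 2 female against 3 male embryos. With array medians subtracted there were 585 and 1828. Every member that rose belongs to purine, pyrimidine, deoxynucleotide or folate synthesis, and both that fell, Pgd and Taldo1, belong to the pentose phosphate pathway. The difference was above 0 for 26 of 31 members (83.9%), against 61.6% of all genes, and the median difference was 0.31 against 0.05. The groups did not overlap for 17 members that were higher and 3 that were lower in Rptor cKO, where 16.5% and 12.5% of all genes did not overlap in these directions. The rises were modest, from 0.38 for Adsl to 0.80 for Dtymk on the log2 scale.

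**Figure D1:**
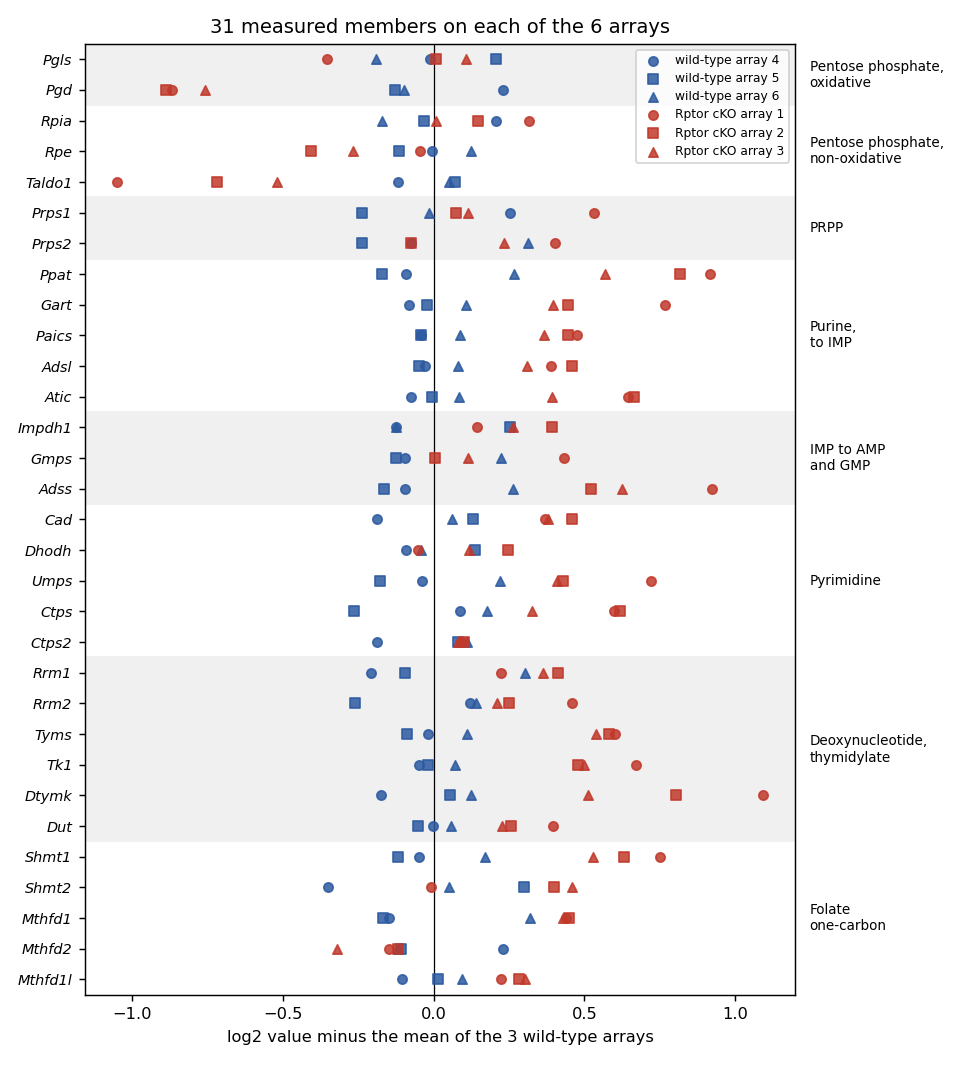
Each measured member on each array, as the log2 value minus the mean of the 3 wild-type arrays, with members in rows by role. Blue symbols are wild-type and red symbols Rptor cKO arrays. The 5 purine genes on the way to IMP have all red symbols to the right of all blue ones, and Pgd and Taldo1 have them to the left.

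The letters of the promoters are shown for members that rose and hold a motif of a factor tied to nucleotide synthesis or to mTORC1. Windows of 300 bases, from 250 before to 50 after each start site, were taken from RefSeq (GRCm38.p6) for 33 of the 35 members and searched on both strands. The E-box CACGTG, the core of sites of MYC with MAX and also of the MiT/TFE factors, was found before the start sites of Atic, Dtymk, Paics and Tyms. Distances are from the start site of the RefSeq promoter table, which for Dtymk (93801934) and Tyms (30073625) lies inside the gene span given further on. Each window is given 5′ to 3′ on the strand of the gene, with the E-box in capitals:
Atic (chr1:71557138-71557165, plus strand, E-box 7 bases before the start site): gacctcggggtCACGTGgggtcgacacg
Dtymk (chr1:93802066-93802093, minus strand, 148 bases before): tctcgaacttcCACGTGaccagagcctg
Paics (chr5:76951088-76951115, plus strand, 203 bases before): gcctcggaaagCACGTGgagggacctgc
Tyms (chr5:30073670-30073697, minus strand, 61 bases before): accacttctgtCACGTGggggcggggtc

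These 4 were among the 11 members that rose, and the E-box was in the windows of neither member that fell and of 0 of 17 measured members with a window that did not pass the test. Impdh2, not measured here, held it as well. Of all 32851 windows 7.15% held an E-box, of tested genes with a window 8.95%, of those that rose 13.3% and of those that fell 9.98%. E2F motifs, of the factors that drive S phase genes, were searched as TTTCCCGC, TTTCGCGC, TTTGCCGC and TTTGGCGC. They were in 2.26% of all windows and in those of 3.17% of tested genes, 7.45% of genes that rose and 2.66% of genes that fell. Among members they were in those of Prps2, which did not pass the test, and Ppat. Ppat held 2, printed here with the motif, read on the opposite strand, in capitals:
Ppat (chr5:76951718-76951747, minus strand, 158 bases before the start site): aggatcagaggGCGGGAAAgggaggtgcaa
Ppat (chr5:76951771-76951800, minus strand, 211 bases before): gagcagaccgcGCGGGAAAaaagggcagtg

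Ppat and Paics lie head to head on chromosome 5, and their gene spans overlap by 277 bases. The Ppat matches above lie inside the span of Paics and the Paics match inside that of Ppat. The ATF4 motif TGATGNAA was in the window of Prps1 alone among members, in 3.97% of all windows and in those of 4.01% of tested genes. The NRF2 motif TGACNNNGC was in those of G6pdx, Pgd, Cad, Ctps2 and Rrm2. It was in 12.4% of all windows and in those of 15% of tested genes. The box CCAAT was in the windows of 15 of 33 members, those of Pgd and Taldo1 included. It was in 37.4% of all windows and in those of 41.6% of tested genes. No motif searched overlapped another in the windows printed. A match is a run of letters and not a measured site.

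Of the 5 measured pentose phosphate genes 2 fell and none rose, and the median difference was -0.24. That median ran from -0.33 to -0.16 with 1 array left out and was -0.40 with the male embryos alone. In the oxidative branch, Pgd encodes 6-phosphogluconate dehydrogenase, which makes NADPH and ribulose 5-phosphate (chromosome 4, 149149991 to 149166705, GRCm38). It read 5.89, 5.87 and 6.00 in Rptor cKO and 6.99, 6.63 and 6.66 in wild-type epidermis. The 3 Rptor cKO values lay close together and below every wild-type value. Pgd fell by 0.84 (SE 0.12, adjusted p = 0.00518 in limma), to 55.9% of the wild-type level. Pgls, the lactonase of the step before, overlapped between the groups, with a difference of -0.08 (95% interval -0.42 to 0.26). It turned above 0 without Rptor cKO array 1 (0.058) or wild-type array 5 (0.026).

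In the non-oxidative branch, Taldo1 encodes transaldolase, which with transketolase moves carbon between pentoses and glycolytic sugars (chromosome 7, 141392160 to 141402976). It read 7.21, 7.54 and 7.74 in Rptor cKO against 8.14, 8.33 and 8.31 in wild-type sheets. The groups did not overlap, and Rptor cKO array 1 was the lowest. Taldo1 fell by 0.76 (SE 0.14, adjusted p = 0.0135), to 58.9% of the wild-type level. Its adjusted p was 0.0583 with Rptor cKO array 2 left out and 0.0501 with wild-type array 6 left out. The isomerase Rpia differed by 0.15 and the epimerase Rpe by -0.24, and neither passed the test. The transketolase Tkt, read from a probe set that also names Mir3076, differed by -0.19 (SE 0.12, adjusted p = 0.405 with such probe sets added to the fit).

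The genes next to the pathway were few to pass. Of 9 measured, 2 fell and 0 rose. Their median was -0.24, the same as that of the members. Pgm2, a phosphopentomutase that the platform lists under its older symbol Pgm1, fell by 0.66 (SE 0.09, adjusted p = 0.00501). Dera, the aldolase that breaks down deoxyribose phosphate, fell by 0.44 (SE 0.11, adjusted p = 0.0436). Tktl1 and Tktl2, relatives of transketolase, read below the negative control median on all 6 arrays.

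The PRPP synthetases Prps1 and Prps2 did not pass the test. Prps1 read 8.45, 7.99 and 8.03 in Rptor cKO sheets and 8.17, 7.68 and 7.90 in wild-type arrays, a difference of 0.24 (95% interval -0.13 to 0.62). Prps2 read 6.62, 6.14 and 6.45 against 6.14, 5.98 and 6.53, a difference of 0.19 (95% interval -0.20 to 0.58). Both overlapped between the groups. Both are X-linked and were highest in Rptor cKO array 1, from a female. Autosomal members such as Gart, Gmps, Adss, Umps and Dtymk were also highest on that array. Rptor cKO array 3, from the other female, read 8.03 for Prps1, near the 7.99 of male array 2. Its Prps2 value of 6.45 lay below the 6.53 of male wild-type array 6. Whether sex set these levels was not tested. With the male embryos alone, Rptor cKO array 2 against the wild type, Prps1 differed by 0.077 and Prps2 by -0.075.

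All 5 measured genes of the purine pathway from PRPP to inosine monophosphate (IMP) rose, with a median difference of 0.54. Ppat encodes the amidotransferase that commits PRPP to purines (chromosome 5, 76913249 to 76951578). It read 6.57, 6.47 and 6.22 in Rptor cKO against 5.56, 5.48 and 5.92 in wild-type sheets. The lowest Rptor cKO array, 3, lay above the highest wild-type array, 6. Ppat rose 1.70-fold (0.76, SE 0.14, adjusted p = 0.0143 in limma).

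Gart carries 3 enzyme activities of the middle steps in a single protein (chromosome 16, 91621395 to 91646972). It read 7.99, 7.67 and 7.62 against 7.14, 7.20 and 7.33, with Rptor cKO array 1 the highest. The rise was 0.54 (SE 0.12, adjusted p = 0.0279). Paics, which adds carbon dioxide and aspartate to the ring precursor (chromosome 5, 76951302 to 76967509), read 7.39, 7.36 and 7.28 against 6.87, 6.87 and 7.0. Its arrays lay close together in either group, and it rose by 0.43 (SE 0.089, adjusted p = 0.0216).

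Adsl, the lyase that acts here and again on the way to AMP (chromosome 15, 80948490 to 80970947), read 6.64, 6.71 and 6.56 against 6.22, 6.20 and 6.33. Its rise of 0.38 (SE 0.091, adjusted p = 0.0354) was the smallest of the members that rose. Atic, which closes the ring with the second folate-borne carbon (chromosome 1, 71557156 to 71579403), read 6.78, 6.80 and 6.53 against 6.06, 6.13 and 6.22. It rose by 0.57 (SE 0.11, adjusted p = 0.0148). Wild-type array 6 was the highest of its group for all 5 genes.

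Pfas, whose step lies between those of Gart, read 7.08, 7.12 and 6.91 against 6.45, 6.57 and 6.56 on a probe set that also names Mir3062. The groups did not overlap, and with such probe sets added to the fit the rise was 0.51 (SE 0.096, adjusted p = 0.0153). The calls on the 5 genes rested on few arrays. They numbered 2 without Rptor cKO array 1 or wild-type array 4 or 5, 3 without wild-type array 6, 4 without Rptor cKO array 3, 0 without Rptor cKO array 2, 2 with array medians subtracted and 3 with a mean-variance trend, and the median difference stayed between 0.42 and 0.61. In the fit without Rptor cKO array 2 the differences of all 5 were between 0.35 and 0.74, with limma adjusted p from 0.0704 to 0.145, and all 5 had an unadjusted p under 0.05.

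**Figure D2:**
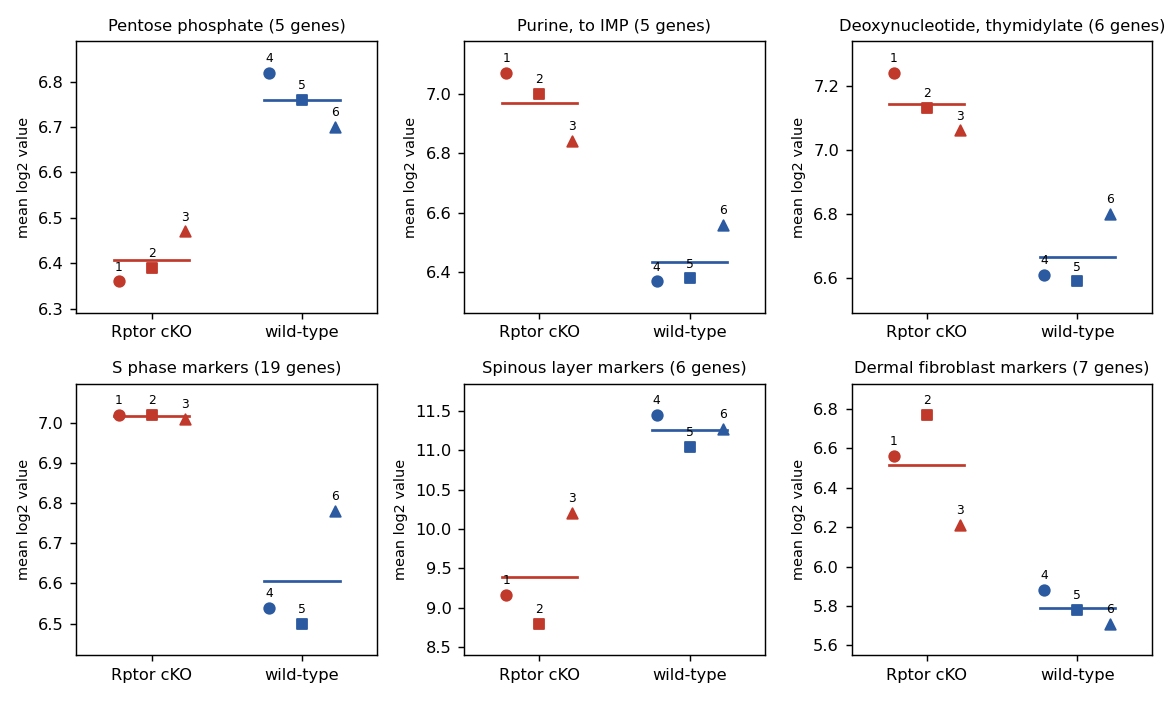
Mean log2 value over the genes of 3 member groups (top) and 3 marker lists (bottom) on each array, numbered 1 to 6, with a line at the mean of each group. Axes differ between panels and do not start at 0. Pentose phosphate genes were lower on every Rptor cKO array (6.36 to 6.47 against 6.70 to 6.82) and purine genes higher (6.84 to 7.07 against 6.37 to 6.56), and spinous markers were nearest to wild-type on Rptor cKO array 3.

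Beyond IMP the branch to AMP and the branch to GMP were described apart. Adss, the synthetase of the AMP branch in most tissues (chromosome 1, 177763176 to 177796695), read 6.97, 6.57 and 6.67 in Rptor cKO and 5.95, 5.88 and 6.31 in wild-type arrays. Rptor cKO array 1 was the highest and the groups did not overlap. Adss rose by 0.69 (SE 0.15, adjusted p = 0.0234), with adjusted p from 0.0569 to 0.0654 without Rptor cKO array 1 or 2 or wild-type array 4 or 5 and 0.0634 with array medians subtracted. Impdh1, of the rate-limiting step to GMP, read 5.65, 5.90 and 5.77 against 5.38, 5.76 and 5.38, a difference of 0.27 (95% interval -0.03 to 0.57). Gmps, the next enzyme, differed by 0.18 (95% interval -0.14 to 0.51). Both overlapped between the groups.

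Salvage and breakdown of purines held 1 rise and 1 fall in 15 genes, with a median of -0.10. Among all genes 3.63% rose and 5.95% fell. Aprt, which recovers adenine with PRPP, read 7.43, 7.70 and 7.62 against 6.90, 7.28 and 7.10 and rose by 0.49 (SE 0.12, adjusted p = 0.0451). Ampd3, an AMP deaminase, read 6.50, 6.43 and 6.83 against 8.59, 7.58 and 7.60. The fall was 1.33 (SE 0.26, adjusted p = 0.0169), and wild-type array 4 stood above the other wild-type arrays. Adssl1, the muscle form of Adss, differed by -0.10 (SE 0.13, adjusted p = 0.726).

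In pyrimidine synthesis 1 of 5 genes passed the test, and all 5 differences were above 0, with a median of 0.40. Cad, the protein of the first 3 steps and a substrate of S6 kinase, read 7.39, 7.48 and 7.40 in Rptor cKO and 6.83, 7.15 and 7.08 in wild-type arrays. The groups did not overlap, and the difference of 0.40 (SE 0.11, adjusted p = 0.0522) stood just outside the threshold. Dhodh, the mitochondrial step, differed by 0.10 and overlapped between the groups.

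Umps, which completes UMP (chromosome 16, 33954782 to 33967038), read 7.21, 6.92 and 6.90 against 6.45, 6.31 and 6.71. It rose by 0.52 (SE 0.13, adjusted p = 0.0465), just inside the threshold. Without Rptor cKO array 1, 2 or 3 or wild-type array 4 or 5 its adjusted p was between 0.0656 and 0.125, and with array medians subtracted 0.113. Ctps, the CTP synthase, read 6.82, 6.84 and 6.55 against 6.31, 5.96 and 6.40, a difference of 0.51 without overlap (SE 0.14, adjusted p = 0.0574). It passed the test without Rptor cKO array 3 (0.61, adjusted p = 0.0495). With any other single array left out it did not pass (limma adjusted p from 0.0638 to 0.204). The X-linked Ctps2, a second CTP synthase, read 6.01, 6.02 and 6.00 against 5.73, 6.00 and 6.03, a difference of 0.09 (95% interval -0.15 to 0.33).

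Among 15 measured genes of pyrimidine salvage and breakdown the median was -0.11. Dctd, which deaminates dCMP and so feeds thymidylate synthase, read 7.09, 6.98 and 6.98 against 6.47, 6.49 and 6.55 and rose by 0.51 (SE 0.087, adjusted p = 0.0101). Nt5c3, a nucleotidase of pyrimidine monophosphates, read 5.29, 5.13 and 6.03 against 8.34, 7.08 and 7.29. It fell by 2.09 (SE 0.34, adjusted p = 0.00928), with Rptor cKO array 3 nearest to wild-type. The other 13 did not pass the test. Of 10 nucleotide kinases, 2 fell and none rose, namely Guk1, which phosphorylates GMP (-0.78, SE 0.14, adjusted p = 0.0121), and Cmpk1, which phosphorylates UMP and CMP (-0.57, SE 0.14, adjusted p = 0.0432).

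Of 6 genes that make deoxynucleotides and thymidylate, 3 rose and all differences were above 0, with a median of 0.44. Tyms, thymidylate synthase, which takes its carbon from folate (chromosome 5, 30038546 to 30073645), read 7.64, 7.62 and 7.58 in Rptor cKO and 7.02, 6.95 and 7.15 in wild-type arrays. It rose 1.49-fold (0.57, SE 0.091, adjusted p = 0.00863). Tk1, the thymidine kinase of S phase (chromosome 11, 117815519 to 117826087), read 7.69, 7.50 and 7.52 against 6.97, 7.0 and 7.09 and rose by 0.55 (SE 0.094, adjusted p = 0.0105). For both genes every Rptor cKO array lay above every wild-type array, and both passed the test with any 1 array left out. The fit without Rptor cKO array 2 set 2 females against 3 males. With embryo sex as a term, which leaves array 2 alone, Tyms differed by 0.58 and Tk1 by 0.48.

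Dtymk, thymidylate kinase, which makes dTDP for both routes (chromosome 1, 93792576 to 93802068), read 8.18, 7.89 and 7.60 against 6.91, 7.14 and 7.21. Its rise was the largest of the 31 members at 1.75-fold (0.80, SE 0.16, adjusted p = 0.0164), and its adjusted p was 0.0726 without Rptor cKO array 2. The subunits of ribonucleotide reductase, which turns ribonucleotides into deoxynucleotides, did not pass the test. Rrm1 differed by 0.33 (adjusted p = 0.200), and wild-type array 6 at 7.28 lay above Rptor cKO array 1 at 7.20. Without wild-type array 6 Rrm1 rose by 0.48 (adjusted p = 0.0461). With any other single array left out it did not pass (limma adjusted p from 0.221 to 0.45).

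Rrm2, the subunit made in S phase, read 6.48, 6.27 and 6.23 against 6.14, 5.76 and 6.16, a difference of 0.31 (SE 0.13, adjusted p = 0.212) with groups that only just did not overlap. Rrm2b, the subunit of cells outside S phase, differed by -0.23 (SE 0.095, adjusted p = 0.192). Dut, which keeps dUTP low, differed by 0.29 without overlap (SE 0.091, adjusted p = 0.0882).

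**Figure D3:**
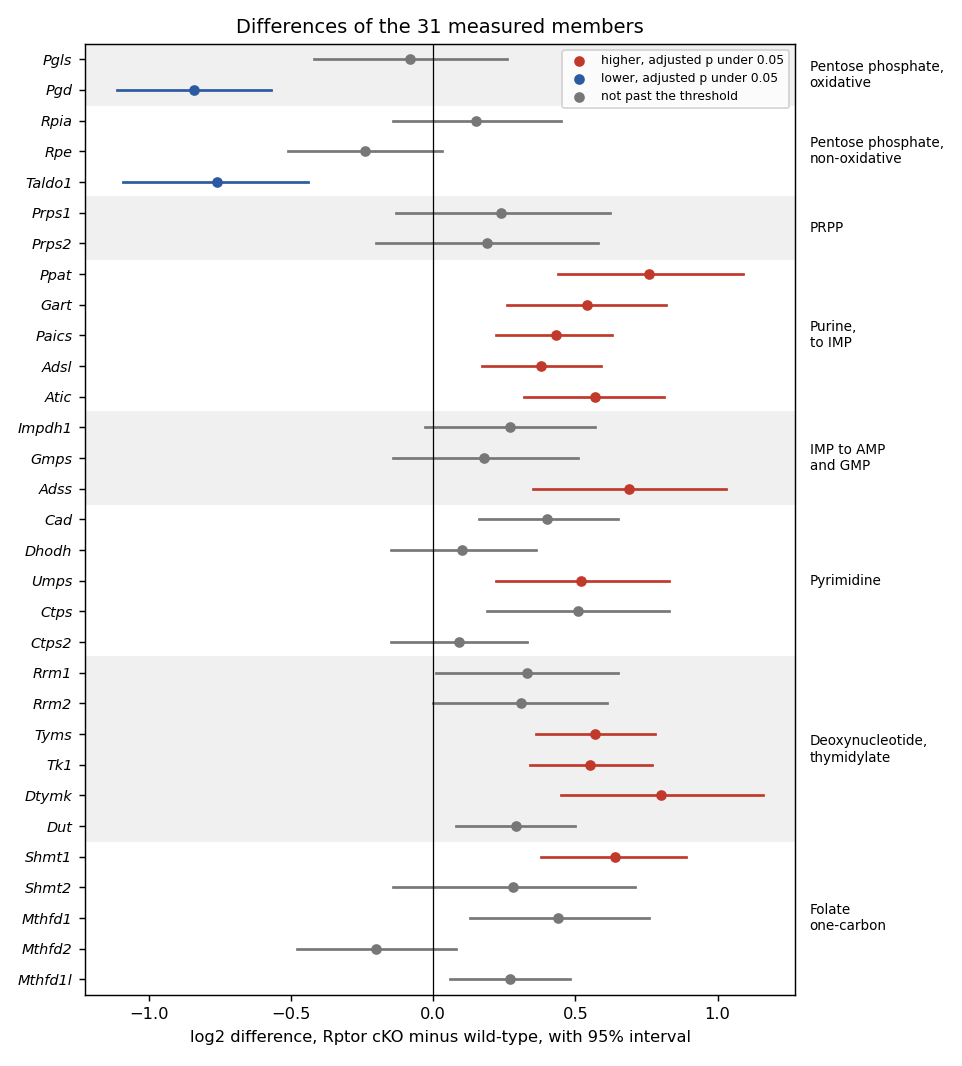
Difference of each measured member, Rptor cKO minus wild-type, with its 95% interval from limma on 3 arrays a group. Red marks the 11 members that rose, blue the 2 that fell and grey the 18 that did not pass the test. The intervals of Rrm1, Rrm2, Cad, Ctps, Dut, Mthfd1 and Mthfd1l lie at or above 0, but these genes missed the threshold after adjustment.

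In folate one-carbon metabolism 1 of 5 genes passed the test, and the median difference was 0.28. Shmt1 encodes the cytosolic enzyme that moves a carbon from serine to folate (chromosome 11, 60788897 to 60811265). It read 6.97, 6.85 and 6.75 in Rptor cKO against 6.17, 6.10 and 6.39 in wild-type sheets. The groups did not overlap, and the rise was 0.64 (SE 0.11, adjusted p = 0.0112). Its adjusted p was 0.0552 without Rptor cKO array 2. The mitochondrial Shmt2 read 8.39, 8.80 and 8.86 against 8.05, 8.70 and 8.45, a difference of 0.28 within the spread of the arrays (adjusted p = 0.416).

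Mthfd1, the cytosolic protein that makes the formyl folate used for purines, read 8.14, 8.15 and 8.13 against 7.55, 7.53 and 8.02. The difference of 0.44 (SE 0.14, adjusted p = 0.0881) did not pass the test, and wild-type array 6 stood near the Rptor cKO arrays. Without that array Mthfd1 rose by 0.60 (adjusted p = 0.0212). With any other single array left out Mthfd1 did not pass (limma adjusted p from 0.162 to 0.236). Mthfd1l, of the mitochondrial formate route, differed by 0.27 without overlap (SE 0.092, adjusted p = 0.110). Mthfd2, a mitochondrial dehydrogenase and known target of ATF4, read 4.65, 4.68 and 4.48 against 5.03, 4.69 and 4.68. It was the sole folate member with a difference below 0, at -0.20 (SE 0.12, adjusted p = 0.376), and its signal was not far above the negative control medians of 3.81 to 4.11.

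The folate genes around these moved more widely. Of 18 measured, 1 rose and 5 fell, with a median of 0.10. Slc19a1, the reduced folate carrier of the cell membrane, read 5.86, 5.78 and 5.70 against 5.35, 5.29 and 5.38 and rose by 0.44 (SE 0.089, adjusted p = 0.0196). Slc46a1, the proton-coupled folate transporter, fell by 1.01 (SE 0.20, adjusted p = 0.0169). Ggh, the lysosomal hydrolase that trims folate polyglutamates, read 6.30, 6.23 and 7.15 against 9.15, 8.50 and 9.00, a fall of 2.32 (SE 0.26, adjusted p = 0.00238).

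Hal, the histidine ammonia-lyase of the upper epidermis, whose pathway hands a carbon to folate, read 4.35, 4.50 and 7.14 against 10.96, 9.97 and 10.30. It fell by 5.08 (SE 0.66, adjusted p = 0.00431), and Rptor cKO array 3 was far above arrays 1 and 2. Aldh1l2, which burns formyl folate in mitochondria, fell by 0.81 (SE 0.19, adjusted p = 0.0320). In serine and glycine metabolism 1 of 11 genes rose and 2 fell. Slc1a5, a neutral amino acid carrier, rose by 0.49 (SE 0.12, adjusted p = 0.0418), while Gldc of the glycine cleavage system fell by 0.63 and Cbs, which uses serine for cystathionine, fell by 0.51. Over all 78 measured neighbours 4 rose and 13 fell, with a median of -0.11, where 3.63% of all genes rose and 5.95% fell.

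**Figure D4:**
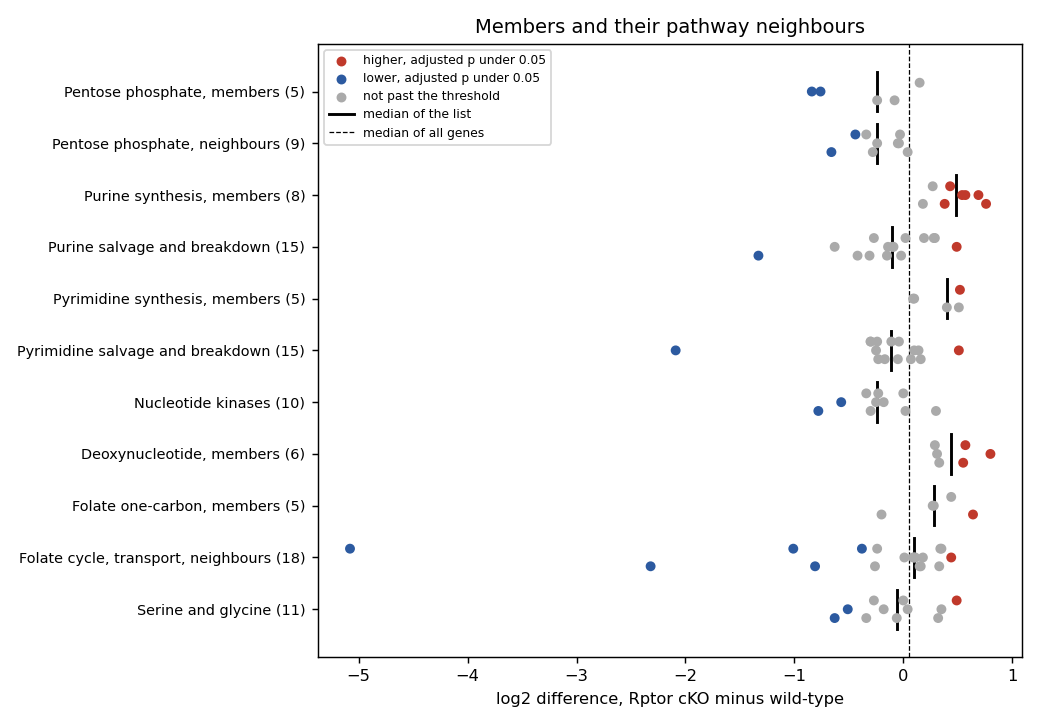
Differences on the log2 scale, Rptor cKO minus wild-type, for members and for their pathway neighbours, 1 point a gene, with the number measured in brackets. Thick lines mark the median of each list and the dashed line the median of all genes, 0.05. Purine synthesis members have a median of 0.48 and purine salvage and breakdown genes one of -0.10, and Hal is the lone point near -5.

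Paralogues and enzymes of different compartments were compared within each array, as the difference of 2 genes set against the same in the other group. The 7 pairs were chosen with their values known, so these are descriptions, and with 3 against 3 arrays the smallest two-sided exact permutation p is 0.1. Mthfd1 minus Mthfd2 was 0.64 higher in Rptor cKO (3.49, 3.47 and 3.65 against 2.52, 2.84 and 3.33). Rrm2 minus Rrm2b was 0.53 higher and Mthfd1l minus Mthfd2 0.47 higher, and for all 3 of these pairs the groups did not overlap (exact p = 0.1, adjusted p = 0.233 over the 7). Adss minus Adssl1 was 0.79 higher and Ctps minus Ctps2 0.42 higher (exact p = 0.2 each). Shmt1 minus Shmt2 was 0.35 higher (exact p = 0.5) and Prps1 minus Prps2 0.05 higher (exact p = 0.8).

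Known regulators of these genes were read on the same arrays. Myc, which drives purine and pyrimidine genes, read 7.46, 7.60 and 7.26 against 6.56, 7.03 and 6.45 and rose by 0.76 (SE 0.16, adjusted p = 0.0247). Atf4 read 7.70, 8.09 and 8.24 against 8.15, 8.31 and 7.94 and overlapped, with a difference of -0.12 (SE 0.16, adjusted p = 0.714). Of 12 regulators measured, 3 rose and 1 fell. The others, named after their values were seen, were E2f1 (0.67), E2f3 (0.61) and Srebf2, which fell by 0.64. The probe set of Srebf1 names several genes and was left out. The activity of these factors, set largely on their proteins, was not measured.

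Markers of the cell cycle and of epidermal layers moved beside these results. S phase markers averaged 7.01 to 7.02 in Rptor cKO and 6.50 to 6.78 in wild-type arrays, with 9 of 19 higher, none lower and a median of 0.41. Wild-type array 6 had the highest S phase level of its group. Of 17 markers of G2 and mitosis 4 rose, with all 17 differences above 0 and a median of 0.44. The member medians were 0.48 for purines, 0.40 for pyrimidines and 0.44 for deoxynucleotides. They were 0.28 for folate, 0.22 for PRPP and -0.24 for pentose phosphate. All 6 spinous markers fell (mean level 8.80 to 10.21 against 11.04 to 11.45), and so did 6 of 7 granular markers (7.41 to 9.01 against 10.05 to 10.93). Basal markers averaged 9.00 to 9.28 against 8.89 to 9.19, with 2 of 8 higher and 1 lower.

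Among other cells, 4 of 7 dermal fibroblast markers rose (mean level 6.21 to 6.77 against 5.71 to 5.88), 1 of 6 endothelial and 1 of 8 melanocyte markers rose, and 3 of 8 macrophage and Langerhans and 1 of 4 T cell markers fell. All 8 melanocyte markers had a difference above 0, with a median of 0.54. Among all genes 3.63% rose, 5.95% fell and 61.6% had a difference above 0. Merkel cell markers held 1 rise and 1 fall in 6, and 3 of the 6 endothelial markers read below the negative control median on every array. In whole sheets a change in the share of cells of a type and a change of RNA per cell cannot be told apart, and the part of these markers in the member values was not tested.

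The sex of the embryos was spread unevenly over the groups, and without Rptor cKO array 2 the fit set 2 females against 3 males. With the male embryos alone, which set Rptor cKO array 2 against the 3 wild-type arrays, the 11 members that had risen differed by 0.43 to 0.82 and the 2 that had fallen by -0.90 to -0.72. None passed the test there (limma adjusted p from 0.0639 to 0.329). With 1 Rptor cKO array, the spread in that fit comes from the wild-type arrays and the moderation, and the lone array is assumed to vary like them. The members that rose or fell are all autosomal, which does not tell sex from genotype. Whether sex set part of their differences was not tested.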

How the data were processed

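The authors deposited a table of log2 signals per probe set, 6 arrays, and the submitters' processing notes name Partek, RMA and mm10. The sources used here give no versions and no array batches. RMA commonly makes the distributions of arrays alike, so a general change in RNA per cell cannot be seen. The medians over all probe sets still differed. They were 4.22, 4.22 and 4.15 on Rptor cKO arrays 1 to 3 and 4.16, 4.14 and 4.08 on wild-type arrays 4 to 6. Of 72688 probe sets 6732 were controls, 30604 named 1 gene, 2146 several and 33206 none, by the platform's annotation with 827 symbols updated through Entrez IDs. This gave 30142 genes, and 355 had several probe sets.

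Differences were fitted in limma 3.58.1 (lmFit, then eBayes; R 4.3.3), two-sided, with group as the sole term, no filter, and Benjamini-Hochberg adjustment with a threshold of 0.05. The fit was tested on simulated data. SE is moderated, with 4.3 prior and 4 residual degrees of freedom. Pairs of genes were compared by exact permutation over the arrays, and these p-values were adjusted with scipy 1.17.1. Promoters came from RefSeq. Members, lists and tests were chosen with earlier results of these data known.

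Values on every array are given for members past the threshold, for Prps1, Prps2, Impdh1, Ctps, Ctps2, Cad, Mthfd2 and Rrm2, and for some others. From each neighbouring list up to 4 genes with the smallest p in each direction are named. Rptor, Atf4, Myc and Srebf1 are named as regulators. Alternatives changed normalization, variance moderation, dim genes, probe set choice, sex and single arrays.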

Additional observations from a re-analysis of the deposited data

How the results depend on the processing

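The count of members that rose was 11 and of those that fell 2. With each array's median subtracted 6 rose, with Ppat, Atic, Tyms, Tk1, Dtymk and Shmt1 kept. Without variance moderation 0 rose and 0 fell, while 15 were higher and 2 lower at an unadjusted p under 0.05. Over all genes that fit gave 6 rises and 2 falls. With embryo sex as a term, and with male embryos alone, which give the same differences since both set Rptor cKO array 2 alone against the wild type, 0 rose and 0 fell, while 12 were higher and 3 lower at an unadjusted p under 0.05. Leaving out 1 array at a time gave 2 to 11 rises and 1 to 2 falls, the fewest without Rptor cKO array 2, where Tyms, Tk1 and Pgd passed. Over all genes these fits gave 274 to 850 rises and 612 to 1631 falls. Quantile normalization gave 13 rises, array weights 12, the mean-variance trend 8, and probe sets of several genes 12. The filter on dim genes and the mean of probe sets gave 11 each, and all of these gave 2 falls. The members that rose or fell kept their direction under every alternative run. Their groups did not overlap, so leaving out arrays, weighting arrays, the sex term or male embryos alone could not reverse them. Changes to variance moderation and the filter on dim genes leave a difference as it was. Among members that did not pass the test, Pgls turned to 0.007 and Prps2 to -0.075 with sex as a term or male embryos alone. With single arrays left out Pgls ran from -0.17 to 0.058 and Ctps2 from -0.008 to 0.14. No paired analysis was possible because the replicate numbers of the groups differ.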
